A study of Homo sapiens with 18 samples.

Results

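Gene expression in MCF-10A cells that overexpressed any of 5 splicing regulators was compared, as 1 side, with cells that carried an empty vector. MCF-10A is an immortalised, non-tumorigenic human mammary epithelial line, which forms hollow spheres when grown in Matrigel, a gel of basement membrane proteins. All cells had spent 8 days in Matrigel. Control cells stably carried the empty vector plasmid PWZL, and each other group a retroviral construct that codes for SRSF2 (SRSF2-OE), SRSF4 (SRSF4-OE), SRSF6 (SRSF6-OE), SRSF9 (SRSF9-OE) or TRA2B (TRA2B-OE). The overexpression side held all 15 samples of these 5 groups and the other side all 3 Control samples, of 18 samples in all. Where samples were sequencing lanes of a shared library ID, their counts were added, which left 12 overexpression libraries against 2 Control libraries. The 12 were 3 libraries each of SRSF2-OE and SRSF9-OE and 2 each of SRSF4-OE, SRSF6-OE and TRA2B-OE. The labels do not say whether replicates were separate cultures or separate infections, so p-values reflect only how far these libraries spread, and part of that may be technical.

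SR proteins bind short motifs in pre-mRNA through RNA recognition domains, and recruit the splicing machinery through a domain rich in arginine and serine. TRA2B is an SR-like protein with the same kind of domain. Members of the family overlap in what they bind and also act in mRNA export, translation and decay, so a set of genes could answer to more than 1 of them. The question put to the data was which genes differed from Control in the same direction whichever factor had been introduced.

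Libraries held 42959069 to 121601376 counts, and 21326 of 60252 genes passed the filter on low counts. Of the 14 libraries, 4 (1 of Control and 1 each of TRA2B-OE, SRSF6-OE and SRSF4-OE) carried a library ID in their label, and the other 10 carried a numeric label. Each kind of label held a single Control library: Control replicates 1-2, with a library ID, and Control replicate 3, with a numeric label. These 2 libraries differed from each other by a median of 0.36 log2 units per gene (either direction), against a median of 0.30 log2 units for the pooled difference between overexpression and Control. Every comparison below rests on these 2 libraries. What sets Control replicates 1-2 or Control replicate 3 apart from other cultures of empty-vector cells cannot be told apart from a change common to every factor. Mitochondrially encoded genes took 6.45% to 16.4% of counts, most in TRA2B-OE replicate 3 and SRSF2-OE replicate 1.

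The introduced factors were examined first. TRA2B was above both Control libraries in 12 of 12 overexpression libraries, and the other 4 were not. TRA2B stood at 105.9 CPM (counts scaled to the same normalised library size) in Control replicates 1-2 and 104.9 CPM in Control replicate 3, against a lowest value of 128.2, a median of 140.4 and a highest of 201.3 CPM in the 12. Its pooled log2 fold change was 0.53 ± 0.14 (standard error), and DESeq2 called it higher (adjusted p = 0.0172) while edgeR did not (adjusted p = 0.208). In the libraries of each factor apart, TRA2B was 0.41 to 0.71 log2 units above Control, and 0.71 was the value in TRA2B-OE itself. SRSF2 was above both Control libraries (203.8 and 176 CPM) in 11 of 12 libraries, which ran from 194.4 to 395.9 CPM. Its mean was 306.6 CPM in SRSF2-OE and 222.5 to 260 CPM in the other 4 groups. SRSF4 was above both in 8 of 12, at 86.8 to 187.2 CPM against 95.5 and 71.4 CPM. Its mean was 177.4 CPM in SRSF4-OE and 94.6 to 100.6 CPM in the other 4 groups. SRSF6 (237.3 to 448.1 CPM against 400 and 239.2 CPM) and SRSF9 overlapped with Control. In SRSF6-OE the SRSF6 mean was 350.2 CPM, 0.15 log2 units above Control, and it was higher in SRSF4-OE (399.9 CPM, 0.36 log2 units). SRSF9 separated most by factor, with a mean of 608.8 CPM in SRSF9-OE. Its means were 96.4 to 107.6 CPM in the other 4 groups, against 95.4 and 92.4 CPM in Control.

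The pooled comparison passed no gene in edgeR's quasi-likelihood test after Benjamini-Hochberg adjustment (0 of 21326, 0%; smallest adjusted p = 0.169). At an unadjusted p under 0.05, edgeR passed 3056 genes (14.3%), 1636 higher (7.67%) and 1420 lower (6.66%), where 1066 are expected by chance. DESeq2 called 502 genes on the same libraries (2.35%), 322 higher (1.51%) and 180 lower (0.844%), and limma-voom called 5 (0.0234%), all lower. The 5 were ANG and the antisense RNA AL163636.1 at the same locus, PLA2G4C, STMN4 and GPC3. The DESeq2 calls rest on Control replicates 1-2: without it DESeq2 called 0 genes (adjusted p of 0.991 or more) and edgeR called 0. Genes under an unadjusted p of 0.05 then numbered 911 in DESeq2 and 751 in edgeR. Without Control replicate 3, DESeq2 called 740 genes, of which 260 were among the 502, and edgeR called 6, among them TBC1D9, FEM1C and OSBPL8, which were lower, and ELOVL6 and PAQR4, which were higher. All 502 genes kept their direction without either Control library. They were chosen for a difference in these same libraries, so the kept direction is no separate evidence. The calls also narrowed when an overexpression library with a library ID was left out, to 206 without SRSF4-OE replicates 1-2, 217 without TRA2B-OE replicates 1-2 and 284 without SRSF6-OE replicates 1-2.

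A second description does not depend on a test. In 919 genes (4.31% of those tested) all 12 overexpression libraries lay above both Control libraries, and in 825 (3.87%) all 12 lay below both. Of these 1744 genes (8.18%), 67 had a larger gap between the Control libraries than their pooled change. Asking in addition for at least 1.5-fold in each of the 5 contrasts with Control left 235 higher (1.1%) and 246 lower genes (1.15%), and 135 and 80 of them were called by DESeq2 (0.633% and 0.375%). At 2-fold the counts were 88 and 66. The 3 genes just inside 1.5-fold were GABPB1-AS1, SHMT2 and LRRC37A6P, each with a smallest contrast of 0.59 log2 units. Just outside it were SLC7A5P1, ERCC1 and RDH11, with smallest contrasts of 0.58 log2 units. The 5 contrasts share the 2 Control libraries, so that a gene moves the same way in all of them is the rule of choice and no separate evidence. The plot of pooled change by level shows these genes among all those tested.

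**Figure D1:**
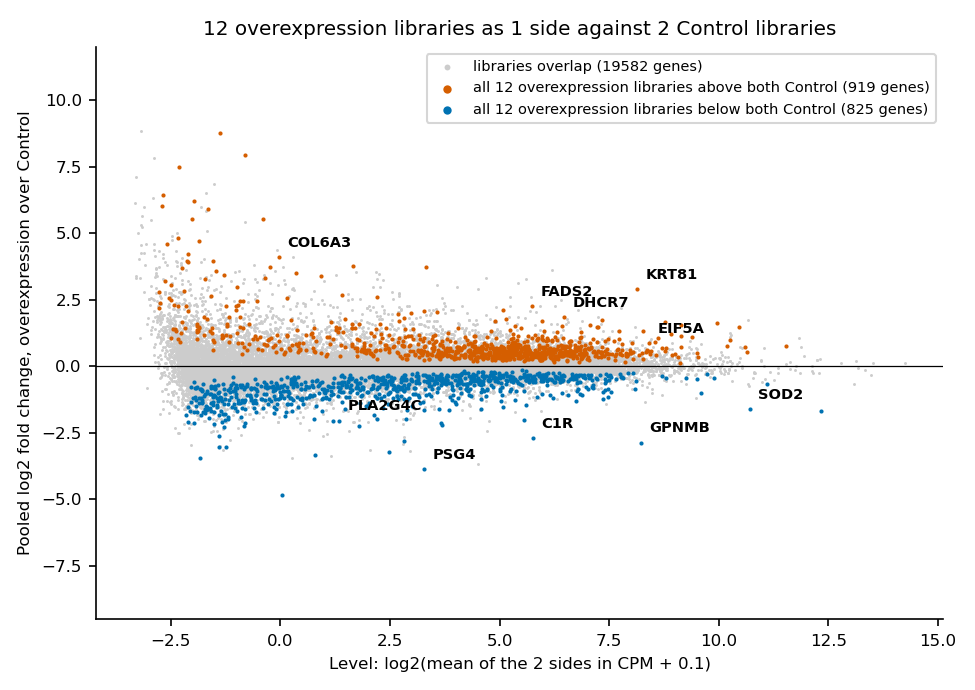
Each point is 1 of 21326 genes, with its level (log2 of the mean CPM of the 2 sides plus 0.1) on the x axis and its pooled log2 fold change, overexpression over Control, on the y axis. Orange marks the 919 genes and blue the 825 genes whose 12 overexpression libraries lay above or below both Control libraries; in the remaining grey genes the libraries overlap.

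Since no gene passed edgeR's test, the genes described were taken by smallest p among those whose libraries did not overlap, with a mean of at least 3 CPM on 1 side and a symbol other than a clone name such as AL163636.1, 12 in each direction, and none of the 24 is past edgeR's threshold (adjusted p = 0.169 to 0.182). DESeq2 called all 24. In 23 of them, 12 higher and 11 lower, the difference was larger among libraries with a library ID (3 against 1) than among those with a numeric label (9 against 1). The plot of levels in every library shows the 24 genes. In all of them the 14 libraries fall into separate ranges by side, because that was how they were chosen.

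Of the 12 higher genes, NOP56, PUS1, POP1 and EIF5A act in RNA processing or translation. NOP56, a core protein of the particles that guide methylation of ribosomal RNA, was at 132.1 and 136.5 CPM in Control and at 197.1, 258.5 and 315.3 CPM (lowest, median and highest) in the overexpression libraries. Its Control libraries were close to each other, and its log2 fold change was 0.95 ± 0.19. PUS1, which converts uridine to pseudouridine in tRNA, stood at 18.03 and 20.3 CPM in Control against 26.5 to 36.8 CPM (0.79 ± 0.15). POP1, a subunit of the RNA-cutting enzymes RNase P and RNase MRP, stood at 10.4 and 16.9 CPM against 23.3 to 38.7 CPM (1.15 ± 0.23). EIF5A, a translation factor that carries the amino acid hypusine, stood at 200.1 and 275 CPM against 344.3 to 597.5 CPM (0.86 ± 0.19). GPS2 overlaps EIF5A on the opposite strand and was higher by a like amount (0.79 ± 0.18), and the sources used here do not give whether counting used strand.

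CD14, a cell-surface co-receptor for bacterial lipopolysaccharide, had the largest difference of these 12. It stood at 1.01 and 1.32 CPM in Control and at 2.23, 4.16 and 5.52 CPM in the overexpression libraries, a log2 fold change of 1.76 ± 0.32 (edgeR adjusted p = 0.169; DESeq2 adjusted p = 5.2e-05). The 5 contrasts gave 1.57 to 2.07, without a difference among the overexpression groups that passed edgeR's F test (unadjusted p = 0.739). CD14 marks monocytes and macrophages. Of other leukocyte markers, in CPM of total counts, ITGAM stood at 0.364 to 2.29 CPM against 0.814 and 1.04 CPM in Control, CD68 at 0.148 to 1.15 CPM against 0.822 and 1.26 CPM, and CSF1R at 6.39 to 51.6 CPM against 38.1 and 42.0 CPM. PTPRC was at no more than 0.197 CPM and LYZ at no more than 0.038 CPM. The part of other cells in the CD14 difference was not tested. MFSD2A, a transporter of lysophosphatidylcholine, stood at 36.2 and 51.1 CPM against 70.5 to 121.8 CPM and had the narrowest range over the 5 contrasts of the 12, 0.89 to 1.01. RANBP1, a partner of the nuclear transport GTPase Ran, was 0.80 ± 0.17 log2 units higher and the centrosome gene ODF2 0.71 ± 0.15. The kinetochore gene SPC24 was 1.46 ± 0.32 higher (5.05 and 13.5 CPM in Control against 17.9 to 39.3 CPM). OR7E38P, an olfactory receptor pseudogene, stood at 1.88 and 4.16 CPM against 5.66 to 11.5 CPM.

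**Figure D2:**
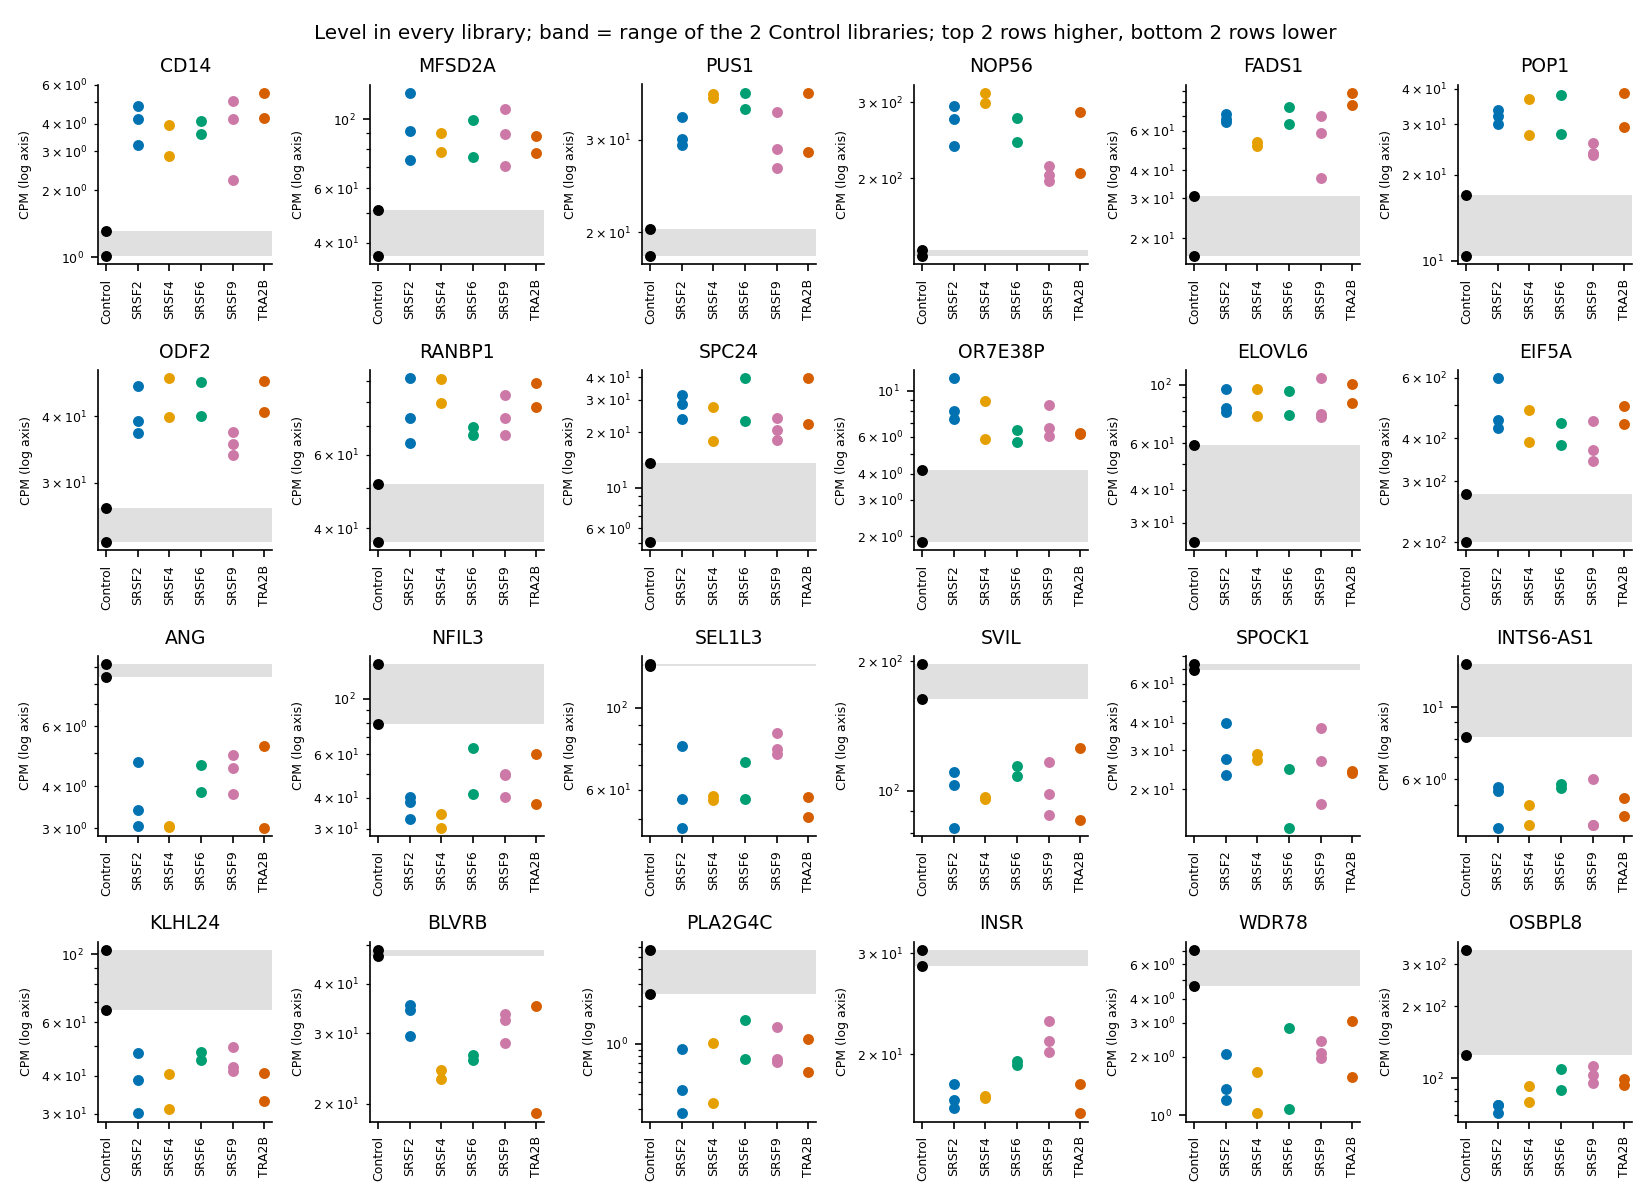
Level in CPM on a log axis (y) in every library, by group (x), for 12 genes that were higher (top 2 rows) and 12 that were lower (bottom 2 rows) on the overexpression side. The grey band is the range of the 2 Control libraries; no coloured point of these genes falls inside it.

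The 12 lower genes were led by ANG, which encodes angiogenin, a secreted ribonuclease that cuts tRNA. ANG stood at 8.40 and 9.14 CPM in Control and at 3.01, 3.82 and 5.26 CPM in the overexpression libraries, a log2 fold change of -1.24 ± 0.21. AL163636.1, annotated on the opposite strand of the same locus and named after its values were seen, had the smallest p of all genes (edgeR unadjusted p = 2.5e-05, adjusted p = 0.169) and a log2 fold change of -1.18 ± 0.19. Because the 2 overlap, they are not separate observations. RNASE4, which shares that locus, was at no more than 0.321 CPM in any library.

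Other lower genes encode a transcription factor, an actin-binding protein and a hormone receptor. NFIL3, a basic leucine zipper transcription factor, stood at 137.8 and 79.2 CPM against 30.3 to 63.3 CPM (-1.18 ± 0.20). SEL1L3 stood at 130.1 and 131.3 CPM, nearly the same in both Control libraries, against 47.3 to 85.2 CPM (-1.08 ± 0.19). SVIL, which encodes the actin-binding protein supervillin, was at 196.9 and 163.1 CPM against 82.2 to 125.9 CPM (-0.83 ± 0.15). SPOCK1, a proteoglycan gene, was at 73.7 and 69.7 CPM against 13.4 to 39.99 CPM (-1.45 ± 0.27). The insulin receptor gene INSR stood at 28.5 and 30.4 CPM against 15.8 to 22.9 CPM (-0.71 ± 0.14), and BLVRB, which encodes biliverdin reductase B, at 46.9 and 48.6 CPM against 18.9 to 35.4 CPM (-0.84 ± 0.16). In ANG, SEL1L3, SPOCK1, INSR and BLVRB the 2 Control libraries were close to each other. That both lay above the 12 follows from how the genes were chosen.

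For other lower genes the size depended on which Control library was taken. OSBPL8, a lipid transfer gene, was at 345.3 CPM in Control replicates 1-2 and 125.4 CPM in Control replicate 3, against 70.98 to 112 CPM, so its log2 difference was -1.91 among libraries with a library ID and -0.47 among those with a numeric label. KLHL24, a ubiquitin ligase adaptor that acts on keratin 14, gave -1.40 and -0.69, and INTS6-AS1, an antisense RNA of INTS6, gave -1.42 and -0.69. INTS6 itself was not lower (0.05 ± 0.20). PLA2G4C, a phospholipase A2 gene, had the largest difference of the 12 at -2.04 ± 0.39 (5.65 and 2.51 CPM against 0.277 to 1.54 CPM). The axonemal dynein gene WDR78 was at -1.50 ± 0.30.

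DESeq2's largest changes were taken as a further set, 12 in each direction with a mean of at least 3 CPM on 1 side and no overlap of libraries; that set was chosen after edgeR's counts were seen, and edgeR passed none of it. Those called higher included hair keratin genes. KRT81 was at 47.5 and 96.1 CPM in Control and at 259.9, 490.7 and 1471 CPM in the overexpression libraries, a log2 fold change of 2.91 ± 0.71 (DESeq2 adjusted p = 0.00064). Its group means were 559.9 CPM in SRSF2-OE, 988.7 in SRSF4-OE, 403.9 in SRSF6-OE, 431.4 in SRSF9-OE and 465 in TRA2B-OE. That each group lay above Control follows from the rule that chose the set. KRT86 and the pseudogene KRT87P overlap KRT81 or each other in the annotation. They are near-identical to KRT81 and may share its reads, and they had log2 fold changes of 2.67 ± 0.74 and 2.61 ± 0.75. FADS2, the delta-6 fatty acid desaturase, was at 8.10 and 26.5 CPM against 38.5 to 122.2 CPM (2.26 ± 0.50), and OSBP2, an oxysterol-binding protein gene, at 12.6 and 13.8 CPM against 27.9 to 145.7 CPM (2.13 ± 0.68).

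Sizes were uneven in others of that set. CHRNA9, a nicotinic acetylcholine receptor subunit, had the largest fold change (3.76 ± 1.44) from 0.168 and 2.04 CPM in Control to 2.22, 4.997 and 55.3 CPM, so Control replicate 3 nearly reached the lowest overexpression library. TNC, the matrix glycoprotein tenascin C, ran from 7.86 to 255.2 CPM with a median of 16.7 against 0.505 and 5.53 CPM, and its mean in SRSF6-OE was 143.5 CPM where the other 4 groups had 11.4 to 19.5 CPM. PHLDA2, an imprinted growth regulator (2.03 ± 0.69), WDR62, a spindle pole gene (1.97 ± 0.59), MN1, a transcriptional coregulator (1.82 ± 0.63), and LRP8, a receptor for apolipoprotein E (1.79 ± 0.55), completed the set with DHCR7, described with the cholesterol genes.

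Among genes called lower by DESeq2, PSG4, a pregnancy-specific glycoprotein gene with close paralogs that can share reads, had the largest fold change. PSG4 fell from 30.4 and 6.32 CPM in Control to 0.235, 0.939 and 4.26 CPM, a log2 fold change of -3.87 ± 0.85 (DESeq2 adjusted p = 0.0014). The mechanosensitive channel gene PIEZO2 (12.4 and 7.63 CPM against 0.129 to 3.49 CPM; -3.22 ± 0.78) and LINC01235, a long noncoding RNA (2.06 and 4.04 CPM against 0.0625 to 1.91 CPM; -3.33 ± 0.80), were called too. GPNMB, a glycoprotein of lysosomes and melanosomes, stood at 446.6 and 610.2 CPM in Control and at 4.11, 70.4 and 204.7 CPM in the 12 libraries (-2.88 ± 0.79). SOD2, mitochondrial superoxide dismutase, stood at 3675 and 1958 CPM against 307.4, 551.3 and 1861 CPM (-1.61 ± 0.34). Its highest overexpression library lay just under Control replicate 3. WTAP overlaps SOD2 on the opposite strand and was at -0.52 ± 0.11. ACSS1, mitochondrial acetyl-CoA synthetase (-2.79 ± 0.62), the ubiquitin ligase genes FBXO32 (-2.04 ± 0.54) and HECW2 (-1.97 ± 0.41), and RRAGD, a Rag GTPase that links amino acids to mTORC1 (-1.98 ± 0.52), were also called. The plot of the 5 contrasts shows these genes side by side.

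**Figure D3:**
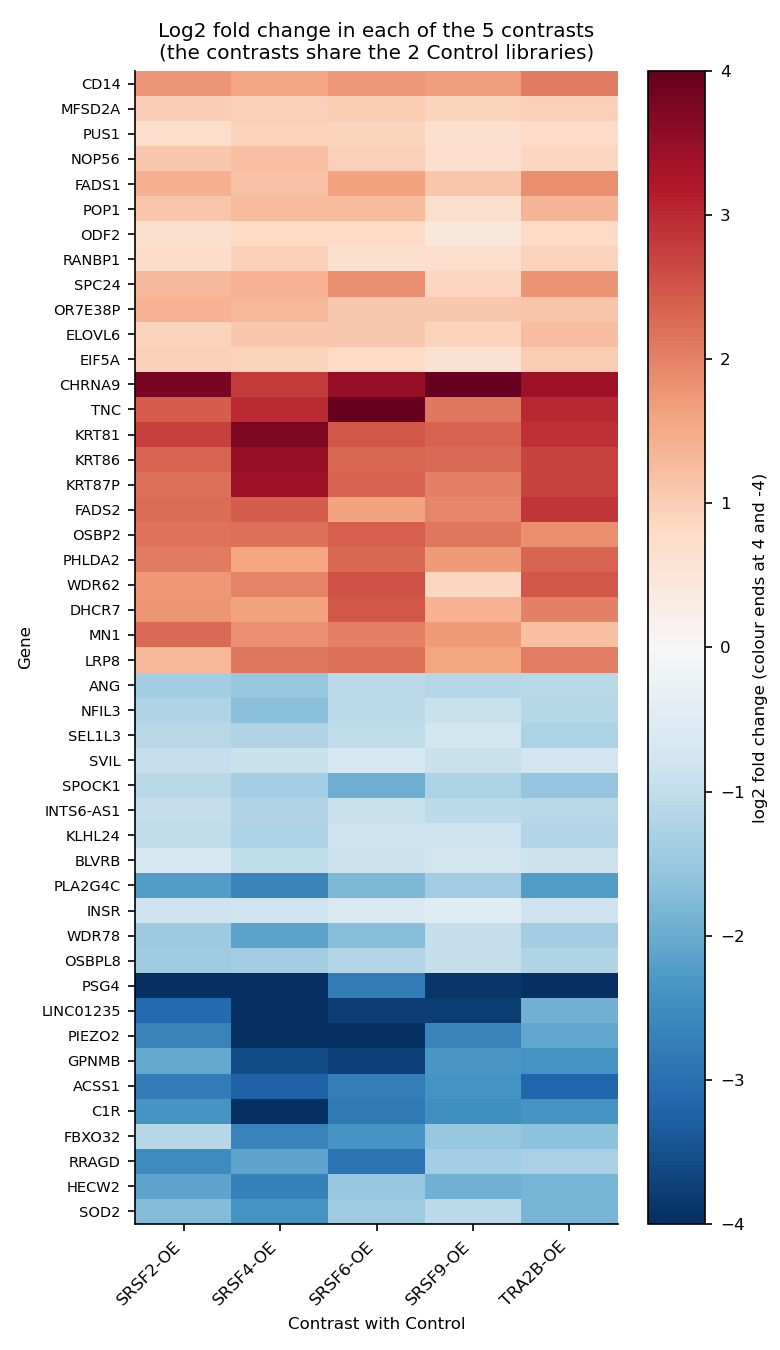
Log2 fold change of 46 genes (y) in each of the 5 contrasts with Control (x); red is higher and blue lower than Control, and colour stops at 4 and -4. Every cell of a gene has the same colour family because genes were chosen for 5 contrasts in the same direction, and all contrasts share the 2 Control libraries.

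Cholesterol synthesis genes shared a positive fitted fold change, and DESeq2 called 11 of the 22 tested higher. Cells make cholesterol from acetyl-CoA through mevalonate and squalene, and the transcription factor SREBP-2, held back by INSIG proteins when sterols are plentiful, switches the enzymes on together. SREBP-1, from the gene SREBF1, does the same mainly for fatty acid enzymes. CCAAT boxes, bound by the factor NF-Y, lie near SREBP sites in several of these promoters. Promoters of 4 members whose libraries did not overlap are shown for their CCAAT boxes, as the 250 bases before the RefSeq start on GRCh38.p14, with CCAAT or its reverse complement in capitals. MVK is on the plus strand at chr12:109573544-109573793, and the other 3 are on the minus strand: DHCR7 at chr11:71448394-71448643, MVD at chr16:88663092-88663341 and HMGCS1 at chr5:43313413-43313662.
MVK: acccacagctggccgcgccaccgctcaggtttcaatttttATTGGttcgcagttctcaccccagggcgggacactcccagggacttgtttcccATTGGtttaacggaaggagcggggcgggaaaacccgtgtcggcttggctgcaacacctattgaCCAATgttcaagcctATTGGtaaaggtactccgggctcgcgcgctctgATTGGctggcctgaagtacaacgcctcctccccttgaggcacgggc
DHCR7: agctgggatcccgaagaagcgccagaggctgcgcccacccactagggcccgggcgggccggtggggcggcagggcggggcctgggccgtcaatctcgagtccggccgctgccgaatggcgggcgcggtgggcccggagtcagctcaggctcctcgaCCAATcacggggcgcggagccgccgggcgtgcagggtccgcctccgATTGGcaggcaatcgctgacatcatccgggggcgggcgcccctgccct
MVD: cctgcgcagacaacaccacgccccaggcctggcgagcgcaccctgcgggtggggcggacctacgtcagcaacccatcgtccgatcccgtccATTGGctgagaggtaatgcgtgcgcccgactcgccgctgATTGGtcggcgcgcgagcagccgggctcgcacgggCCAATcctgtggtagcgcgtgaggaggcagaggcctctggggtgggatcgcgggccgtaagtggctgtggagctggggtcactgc
HMGCS1: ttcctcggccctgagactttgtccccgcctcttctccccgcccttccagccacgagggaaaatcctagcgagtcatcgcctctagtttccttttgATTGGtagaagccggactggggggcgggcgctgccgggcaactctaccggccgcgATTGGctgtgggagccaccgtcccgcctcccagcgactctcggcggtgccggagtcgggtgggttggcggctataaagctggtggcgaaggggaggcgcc
In windows from 250 bases before to 50 bases after the start, CCAAT was found on either strand in 5 places in MVK, 2 in DHCR7, 3 in MVD and 2 in HMGCS1. It was found in 13 of 16 promoters of the cholesterol list that RefSeq's table held (81.2%), against 36% of 11424 promoters of tested genes and 35.7% of all 27305. A sterol element spelled TCACNCCAC was found on either strand in 1 of the 16 (6.25%; 1.16% of tested genes). Such matches describe letters in a window and are not binding sites.

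Of 22 cholesterol genes tested, 22 had a positive pooled log2 fold change (range 0.09 to 1.85), with a median of 1.01 where the median over all genes tested was 0.0028. In 14 of the 22 all 12 overexpression libraries lay above both Control libraries, against 4.31% of all genes, and DESeq2 called 11 of 22 higher, against 1.51% of all genes; edgeR called 0. Without Control replicates 1-2 the median was 0.70, and without Control replicate 3 it was 1.40. That the 14 members had no overlap with Control replicate 3 alone follows from the rule that chose them. The median over members was 0.90 in SRSF2-OE, 0.83 in SRSF4-OE, 1.26 in SRSF6-OE, 0.54 in SRSF9-OE and 1.13 in TRA2B-OE.

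The enzymes of the upper pathway were among those called. HMGCS1, which makes HMG-CoA, was at 53.7 and 54.2 CPM in Control, and at 70.9, 99.5 and 234.2 CPM in the overexpression libraries (1.12 ± 0.34; DESeq2 adjusted p = 0.0416). MVK, mevalonate kinase, had the smallest p of the list (20.2 and 32.2 CPM against 33.9, 47.3 and 57.3 CPM; 0.76 ± 0.17). Its lowest overexpression library stood just above Control replicate 3. MVD, which decarboxylates the mevalonate product, was at 15.5 and 27.9 CPM against 34.5, 59.9 and 107.3 CPM (1.52 ± 0.37). The isomerase IDI1 (1.06 ± 0.30), farnesyl diphosphate synthase FDPS (1.34 ± 0.40) and the thiolase ACAT2 (1.13 ± 0.28) were called as well. FDPS overlaps RUSC1-AS1 on the opposite strand, which was higher by 1.31 ± 0.39.

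Later enzymes and regulators were called too. FDFT1, squalene synthase, was at 90.3 and 149.9 CPM against 164.7, 237.2 and 401.9 CPM (1.02 ± 0.29), and MSMO1, a sterol methyl oxidase, at 53.3 and 93.6 CPM against 105.9, 156.1 and 270.4 CPM (1.06 ± 0.30). DHCR7, which carries out the last step of a branch to cholesterol, had the largest difference of the list: 17.4 and 63.8 CPM against 84.0, 137.2 and 268.6 CPM (1.85 ± 0.43). INSIG1, the sterol sensor's partner, stood at 12.7 and 17.5 CPM against 20.9, 44.5 and 105.6 CPM (1.70 ± 0.50). SQLE, CYP51A1 and SC5D had no overlap but no DESeq2 call. SREBF2, the gene of SREBP-2, was at 0.35, with overlap. LSS and PMVK were near Control, at 0.21 and 0.09.

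Fatty acid genes gave a similar picture. Of 14 tested, 11 were positive, 8 had no overlap (all higher; 4.31% of all genes), and DESeq2 called 7 higher (1.51% of all genes), with a median of 0.77. FADS1, the delta-5 desaturase, stood at 16.6 and 30.8 CPM in Control and at 37.1, 66.5 and 88.4 CPM on the other side (1.45 ± 0.29). FADS1 and FADS2 are neighbours whose annotations overlap on opposite strands. ELOVL6, which lengthens palmitate, was at 25.3 and 59.4 CPM against 75.8, 83.6 and 105.9 CPM (1.03 ± 0.23). FASN, fatty acid synthase, was at 281.8 and 384 CPM against 477.9, 788 and 1082 CPM (1.15 ± 0.27), and SCD, stearoyl-CoA desaturase, at 111.6 and 324.9 CPM against 425.7, 659.3 and 1536 CPM (1.67 ± 0.49). SREBF1 was at 96.1 and 137 CPM against 149.9, 206.8 and 244.7 CPM (0.73 ± 0.21), and the cytosolic acetyl-CoA synthetase ACSS2 was 0.99 ± 0.27 higher. ELOVL1, the other gene without overlap, missed DESeq2's threshold (0.44 ± 0.18). Without Control replicates 1-2 the median was 0.56 and DESeq2 called 0 members.

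**Figure D4:**
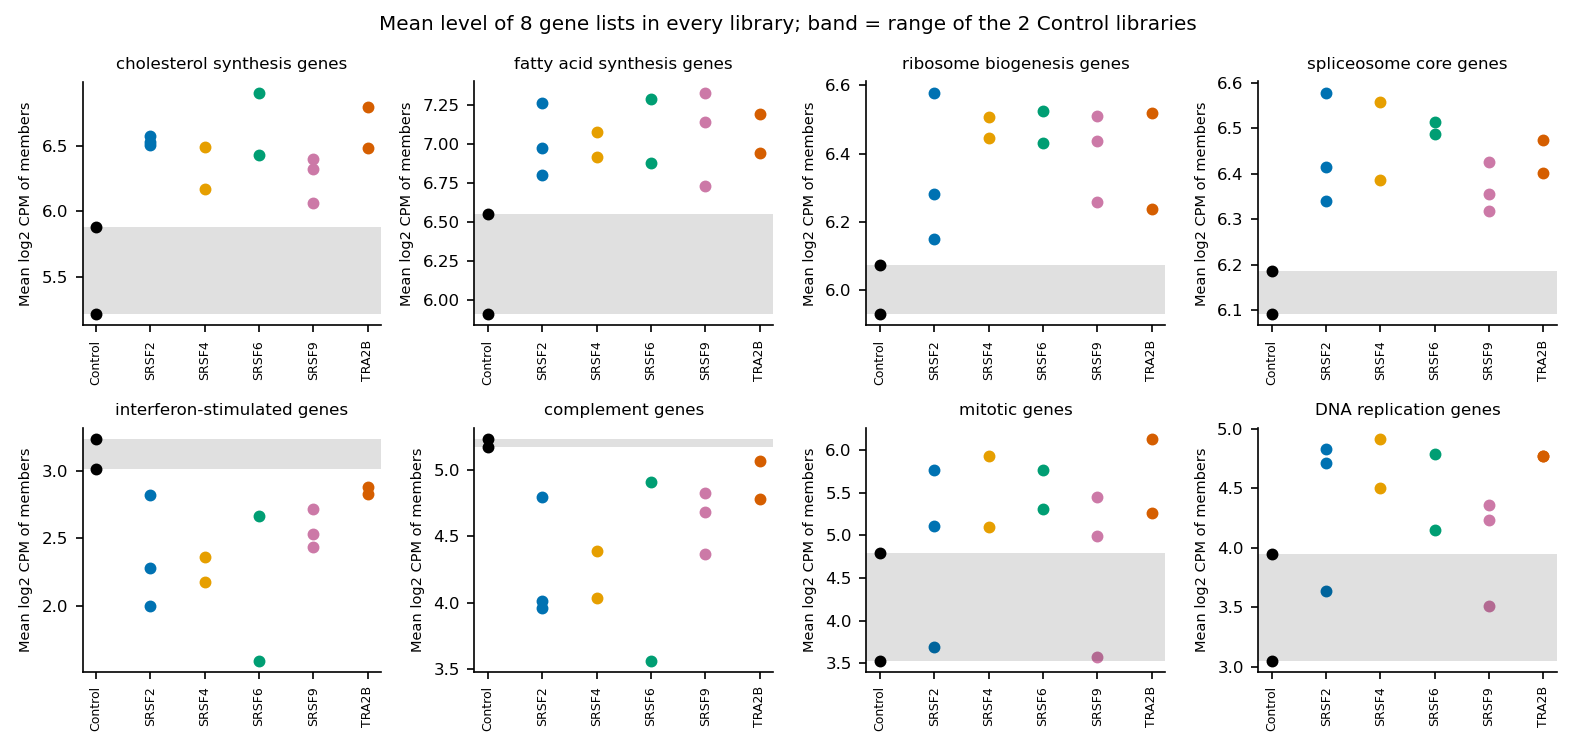
Mean log2 CPM of the tested members of 8 gene lists (y) in every library, by group (x), with the range of the 2 Control libraries as a grey band. In the first 4 lists 12 of 12 overexpression libraries lie above the band, in interferon-stimulated and complement genes 12 of 12 lie below it, and in mitotic and DNA replication genes 10 of 12 lie above it. Of 12 complement genes, 1 had no overlap, and their median was 0.09 among libraries with a library ID and -0.78 among those with a numeric label.

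Ribosome biogenesis genes, which make and fold the RNA of ribosomes in the nucleolus, were higher by smaller amounts. Of 28 tested, 27 were positive with a median of 0.40; 12 had no overlap, all higher (4.31% of all genes), and DESeq2 called 5 higher (1.51% of all genes), which were NOP56, PPAN, NOLC1, NOP2 and NCL. NOLC1, a nucleolar phosphoprotein, was at 149.3 and 179.6 CPM against 206.4, 246.1 and 297.2 CPM (0.62 ± 0.16). NCL, nucleolin, was at 549.9 and 694.8 CPM against 721.6, 838.7 and 1053 CPM (0.50 ± 0.16). NOP2, a ribosomal RNA methyltransferase, was at 61.8 and 63.5 CPM against 72.1, 107.3 and 154.9 CPM (0.80 ± 0.24). The mean level of the list was above both Control libraries in 12 of 12 libraries. The E-box CACGTG, its own reverse complement and the sequence bound by MYC with MAX, was found in 8 of 24 promoters of these genes (33.3%), against 9.70% of promoters of tested genes. Without Control replicates 1-2 the median was 0.34 and DESeq2 called 0.

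Core spliceosome genes, which encode proteins of the snRNPs that carry out splicing, were positive in 25 of 26, with a median of 0.26. No overlap was seen in 7, all higher (4.31% of all genes), and DESeq2 called 2 higher (1.51% of all genes), SNRPA and LSM4. SNRPA, the U1 snRNP protein A, was at 25.1 and 43.4 CPM in Control and at 46.7, 61.6 and 77.5 CPM in the overexpression libraries (0.77 ± 0.17). LSM4, a subunit of the ring that holds U6 RNA, was at 29.01 and 46.8 CPM against 52.3, 62.4 and 75.7 CPM (0.68 ± 0.16). The introduced factors are not members of that list. The 15 SR and SR-like genes that were not introduced did not share its shift: their median was 0.02, and -0.21 and 0.26 among libraries with a library ID and with a numeric label. SRSF3 (186.5 and 155.4 CPM against 183.7, 212.5 and 245.5 CPM; 0.36 ± 0.12) was called higher by DESeq2 (adjusted p = 0.0443), with overlap. SRSF1 had no overlap (0.45 ± 0.15) and was not called. Of 24 hnRNP genes, which encode other RNA-binding regulators of splicing, 0 were called by DESeq2 or edgeR. At edgeR's unadjusted p under 0.05 there were 6 (14.3% of all genes), and 4 had no overlap (8.18% of all genes). Among these 4 was PTBP1, a repressor of exons, at 182.7 and 231.4 CPM against 249.5, 297.4 and 379.7 CPM (0.49 ± 0.15). CLK1, a kinase of SR proteins, stood at 219.4 and 122.5 CPM against 90.8, 109.2 and 135.7 CPM and overlapped with Control replicate 3.

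Cell cycle genes were higher on average, but the 2 Control libraries lay far apart. Mitotic genes were positive in 32 of 32, with a median of 1.04, yet 0 had libraries that did not overlap (8.18% of all genes). DESeq2 and edgeR called 0, and 7 were at edgeR's unadjusted p under 0.05 (14.3% of all genes). Their mean log2 CPM was 3.53 in Control replicates 1-2 and 4.79 in Control replicate 3, and 3.57, 5.29 and 6.13 (lowest, median and highest) in the 12. SRSF2-OE replicate 2 and 1 library of SRSF9-OE lay between the Control libraries. The median was 1.92 among libraries with a library ID and 0.27 among those with a numeric label. DNA replication genes were positive in 31 of 31 (median 0.94; 1.47 and 0.35 by kind of label), with 3 free of overlap (4.31% of all genes) and 5 called higher by DESeq2 (1.51% of all genes). CCNE1, cyclin E1, which starts S phase, was one of these, at 3.88 and 5.51 CPM against 6.42, 9.06 and 11.3 CPM (0.95 ± 0.23). POLD1, a DNA polymerase subunit, was another (0.66 ± 0.19), while UHRF1, CDC45 and CDT1 were called with overlap. Fewer dividing cells and less of these RNAs per cell cannot be told apart in bulk RNA, which holds for every list here.

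Interferon-stimulated genes were lower on average. They are switched on by interferons and viral RNA, and many block viruses. Of 39 tested, 34 were negative with a median of -0.37; 6 had no overlap, all lower (3.87% of all genes), edgeR and DESeq2 called 0, and 9 were lower at edgeR's unadjusted p under 0.05 (6.66% of all genes). Their mean log2 CPM was 3.23 and 3.01 in Control and 1.60, 2.48 and 2.88 in the 12 libraries, so the sides did not overlap. IFIT5, an RNA-binding interferon effector, had the smallest p (39.6 and 26.3 CPM against 16.6, 21.4 and 28.8 CPM; -0.48 ± 0.14). IFIH1, the sensor MDA5, was at 19.8 and 20.5 CPM against 7.51, 12.8 and 18.5 CPM (-0.63 ± 0.24), and IRF1, an interferon-inducible transcription factor, at 19.6 and 20.03 CPM against 9.21, 14.3 and 18.1 CPM (-0.48 ± 0.25). GBP2, a guanylate-binding protein, was at 64.3 and 39.9 CPM against 1.25, 14.8 and 33.2 CPM (-1.54 ± 0.78). The median over members was between -0.17 (TRA2B-OE) and -0.68 (SRSF4-OE and SRSF6-OE), and -0.57 and -0.40 by kind of label.

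Single members of related groups were called lower by DESeq2. C1R, a protease that starts the classical complement pathway, stood at 124.7 and 73.3 CPM in Control and at 1.49, 9.92 and 47.7 CPM in the 12 libraries (-2.71 ± 0.65; DESeq2 adjusted p = 0.0283), and was the only one of 12 complement genes called. IL15, a cytokine for lymphocytes (4.95 and 5.61 CPM against 1.79, 2.37 and 4.50 CPM; -0.97 ± 0.26), and the NF-kB subunit gene REL (40.2 and 32.0 CPM against 14.2, 21.8 and 30.2 CPM; -0.78 ± 0.21) were called. IL7 (-0.70 ± 0.21) and CXCL14 (-3.19 log2 units) were called with overlap, while IL33 (3.72 ± 1.33) and CSF2 (6.22 ± 2.36), which was at or near 0 in Control, were called higher. As a list, chemokine and interleukin genes had no common direction, with medians of 1.38 and -0.43 by kind of label. KRT19, a luminal keratin that was scarce throughout (0.551 and 0.844 CPM against 0.0591 to 0.485 CPM), was called lower. The 11 mammary luminal genes tested, of 21 listed, had a mean level below both Control libraries in 12 of 12 libraries (median -0.50). Of the 11, 3 were positive and 1 had no overlap (lower; 3.87% of all genes). Their median was -0.04 in SRSF2-OE, and -0.52 to -0.94 in the other groups.

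Adhesion, matrix and stress genes gave mixed results. KRT17, a basal keratin induced by stress, stood at 6904 and 9786 CPM in Control and at 699.3, 2006 and 6568 CPM in the overexpression libraries (-1.68 ± 0.66), with no overlap and no call. DSG3, a desmosomal cadherin, was at 1014 and 986.4 CPM against 233.8, 537.2 and 960.3 CPM (-1.02 ± 0.30), also with no call (DESeq2 adjusted p = 0.0667), and the polarity gene PARD3 at 90.3 and 87.1 CPM against 49.4, 68.1 and 83.2 CPM (-0.46 ± 0.13). TIMP1, an inhibitor of matrix metalloproteinases (63.9 and 119 CPM against 164, 206.3 and 465.1 CPM; 1.49 ± 0.46), and PLAT, tissue plasminogen activator (21.8 and 54.7 CPM against 55.7, 86.3 and 113.8 CPM; 1.12 ± 0.34), were called higher by DESeq2. COL6A3, a collagen VI chain, was called higher at a low level (0.0229 and 0.196 CPM against 0.288, 1.66 and 5.40 CPM). BMP4, a growth factor of the TGF-beta family (1.41 and 1.51 CPM against 0.172, 0.594 and 0.989 CPM; -1.41 ± 0.37), was called lower. ATF3, a stress transcription factor, was called lower at -3.66 ± 0.82, but stood at 79.3 CPM in Control replicates 1-2 and 6.71 CPM in Control replicate 3 against 1.09, 2.496 and 8.18 CPM, and overlapped with the latter. SDF2L1 (0.92 ± 0.26) and DNAJB11 (0.38 ± 0.12), helpers of protein folding in the endoplasmic reticulum, and the glycolytic genes PGAM1 (0.71 ± 0.20), PKM (0.72 ± 0.22) and ENO1 (0.54 ± 0.17) were called higher, each without overlap. The plot of list medians sets the pooled value of each list beside the values within each kind of label.

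**Figure D5:**
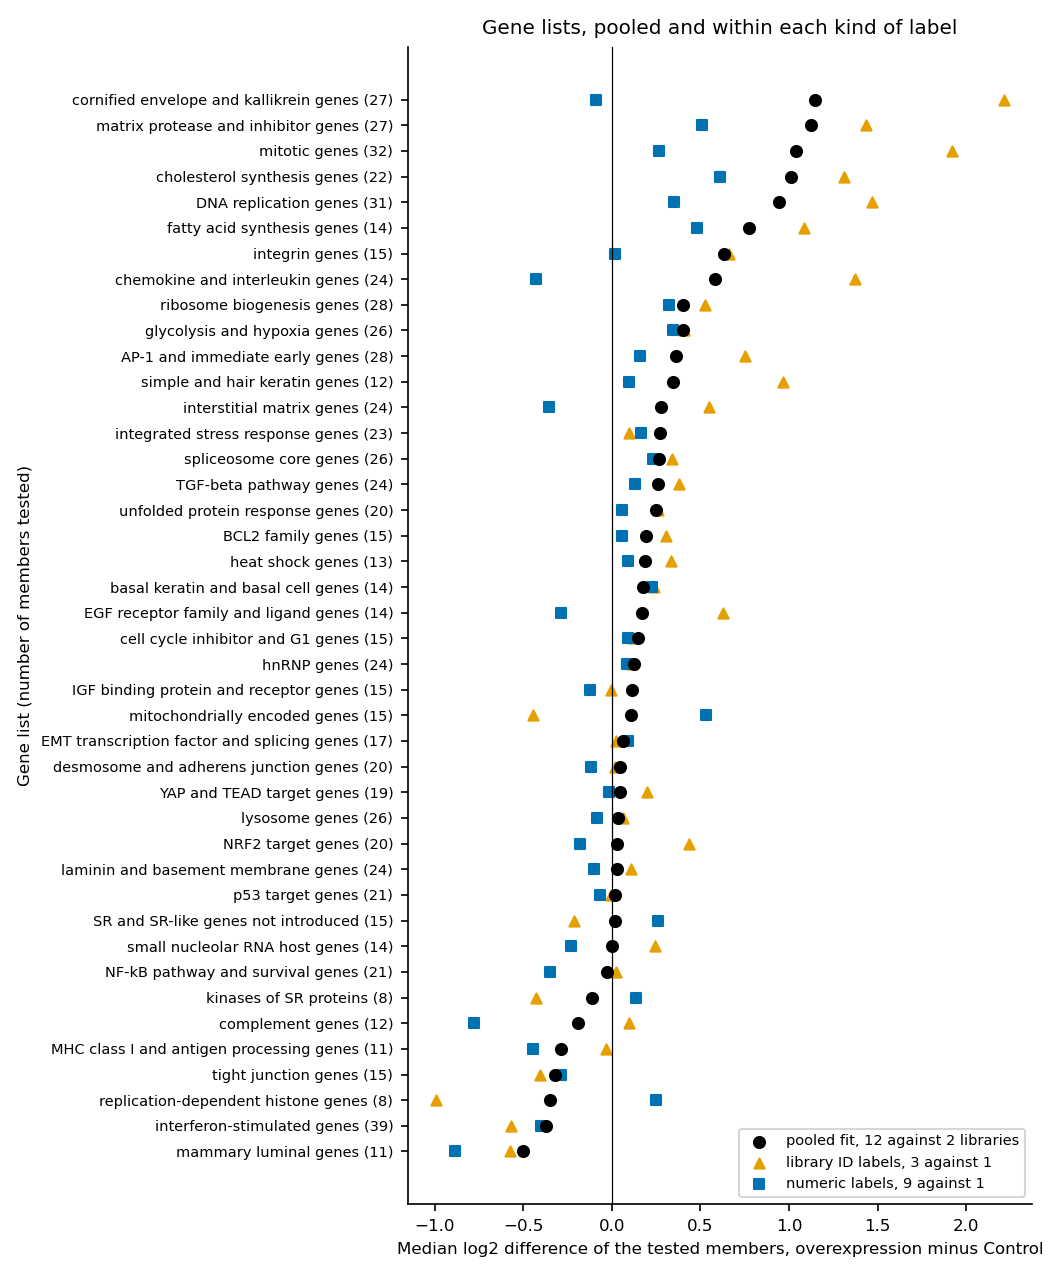
Median log2 difference, overexpression minus Control, of the tested members of each gene list (y, with the number of members), for the pooled fit of 12 against 2 libraries (black), libraries with a library ID (orange, 3 against 1) and libraries with a numeric label (blue, 9 against 1). Cholesterol, fatty acid, ribosome biogenesis and spliceosome lists lie right of 0 and interferon-stimulated and mammary luminal lists left of 0 by all 3 measures, whereas cornified envelope and chemokine lists change sign between kinds of label. These are examples. Mitotic, DNA replication and glycolysis lists also lie right of 0 and the tight junction list left of 0 by all 3 measures, and further lists do either.

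Some lists had a large pooled median that was smaller among libraries with a numeric label. Cornified envelope and kallikrein genes, which form the outer barrier of skin, were positive in 26 of 27 with a median of 1.15. Of these 27, 0 were free of overlap (8.18% of all genes) or called by DESeq2 or edgeR. At edgeR's unadjusted p under 0.05 there was 1 (14.3% of all genes). The median was -0.09 among libraries with a numeric label (2.21 with a library ID). Matrix protease genes had a median of 1.12 (1.435 with a library ID and 0.508 with a numeric label), and 0.54 to 1.35 over the 5 groups. Their mean level was above both Control libraries in 11 of 12 libraries. Of 27 tested, 3 were free of overlap, all higher (4.31% of all genes), and DESeq2 called 5 higher (1.51% of all genes). Of those called, MMP1, MMP9 and MMP10 were at 0.216 CPM or less in Control. Each also had at least 1 overexpression library under 0.1 CPM. Integrin genes had a median of 0.63 pooled, and 0.66 and 0.02 by kind of label. No member was called in the p53 target, lysosome, heat shock, NRF2 target, BCL2 family or laminin lists by DESeq2 or edgeR; at edgeR's unadjusted p under 0.05 these held 3 of 21, 1 of 26, 4 of 13, 3 of 20, 4 of 15 and 0 of 24 genes, against 14.3% of all genes.

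The labelled cell type was checked against its markers. The summed level of 8 mammary epithelial markers was 10440 to 27960 CPM of total counts in the overexpression libraries and 18840 and 27920 CPM in Control, with KRT5 at 7036 CPM or more in every library. Fibroblast markers summed to 175.2 to 456.1 CPM against 594.2 and 291.1 CPM, in Control mostly DCN and COL1A1, while COL1A2, COL3A1 and THY1 were at no more than 0.314 CPM. Leukocyte markers summed to 12.4 to 57.96 CPM against 41.1 and 45.8 CPM, in Control mostly CSF1R. Endothelial markers summed to 3.83 to 16.2 CPM against 28.5 and 21.3 CPM. In Control most of that sum was KDR, the receptor for VEGF-A, which lay below both Control libraries in 12 of 12 libraries (1.92 to 13.2 CPM against 28.1 and 20.9 CPM). TEK reached 8.82 CPM in an overexpression library against 0.123 and 0.183 CPM in Control, while CDH5 was at no more than 0.0191 CPM. The part of endothelial cells in the KDR difference was not tested. Of 938 listed genes, 108 were under the count filter, among them PGK1, TPI1, ACLY and TKT, which nearly all cells use, so a count near 0 in this table does not show that a gene is silent.

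Whether the common genes also differed between factors was asked of the 5 overexpression groups alone, without Control. An edgeR F test over these groups called 8 of 21326 genes (0.0375%), while 2355 (11%) had an unadjusted p under 0.05. Of the 481 genes at least 1.5-fold from Control in every contrast, 35 had an unadjusted p under 0.05 in that test. The rule that chose the 481 favours genes with little spread between groups. The 35 therefore cannot be set against the 11% of all genes. Among the 24 genes taken by smallest p, those with an unadjusted p under 0.05 in the F test were SPC24 (unadjusted p = 0.0071), NFIL3 (0.0124) and WDR78 (0.0416). NFIL3 was lowest in SRSF4-OE (log2 fold change -1.68) and nearest to Control in SRSF9-OE (-0.89). A p that misses the threshold in this test does not show that the factors act alike.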

How the data were processed

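RNA of 3D structures taken out of Matrigel was made into stranded mRNA libraries and sequenced in pairs of 101 bases, per the labels' protocols. The authors deposited raw counts per gene, 1 column per sample. The submitters' processing notes name Trimmomatic 0.36, STAR 2.5.1b, Subread, featureCounts and GRCh37, without their settings; the sources used here do not give the strand setting of the counting. Lane columns of a shared library ID were summed, since they differed far less than other libraries of a group (mean chi-square per gene of 3.82 to 9.06, against 58.8 to 318). Gene names were taken from GENCODE v29 by Ensembl ID: 55951 matched, and the other 4301 held 0.152% to 0.192% of counts. Genes passed filterByExpr of edgeR 4.0.16 (minimum count 10). TMM-normalised counts were tested two-sided with glmQLFit and glmQLFTest in R 4.3.3 for overexpression against Control, with the kind of label as a term; the 5 contrasts and the F test came from a model of the 6 groups. Adjusted p-values are Benjamini-Hochberg over all genes tested, with a threshold of 0.05. DESeq2 1.42.0 and limma-voom (limma 3.58.1) used the same design. The scripts were tested on simulated data.

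Genes named are the 12 in each direction with the smallest p among those without overlap of libraries with a mean of at least 3 CPM on 1 side and with a symbol that is not a clone name, plus up to 4 members per list by the same order; other list members were named after their values were seen. Gene lists, comparisons and members were chosen with earlier results of these data known. Files of the GRCh37 build had no genome of that build here, so promoters are RefSeq's on GRCh38.p14, matched by symbol. Some genes are not reported here.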

Additional observations from a re-analysis of the deposited data

Results flagged for a closer look

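A difference among the 5 overexpression groups passed edgeR's F test for 8 genes: STARD13-AS, AC105460.1, SLCO1B3, SRSF9, ADARB2, MIS18A-AS1, ABCB11 and PCDHGA11. SRSF9 (adjusted p = 0.0169) had a mean of 608.8 CPM in SRSF9-OE and at most 107.6 CPM in the other groups, which is the introduced factor itself. STARD13-AS, an antisense RNA (adjusted p = 0.000741), had a mean of 164.4 CPM in SRSF6-OE and at most 0.302 CPM in the other 4 groups. AC105460.1, SLCO1B3, ABCB11 and PCDHGA11 also had their highest mean in SRSF6-OE, and MIS18A-AS1 in SRSF9-OE (3.41 CPM, with at most 0.302 CPM elsewhere). Without SRSF6-OE replicate 3 the test called 0 genes, and without SRSF2-OE replicate 1 it called 54. Single libraries were not screened for outliers within groups, since groups held 2 or 3 libraries.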

How the results depend on the processing

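With all overexpression libraries pooled against Control, where edgeR called 0 genes, DESeq2 called 502, limma-voom 5, edgeR without a filter on low counts 1 (OTOGL, log2 fold change -5.00), edgeR with the 18 samples as separate replicates 3023, and edgeR in libraries with a library ID 808. Without SRSF2-OE replicate 1 and TRA2B-OE replicate 3, edgeR called 3 (AL162413.1, LINC01235 and OTOGL, all lower). Leaving out 1 library at a time gave 0 to 6. Libraries with a numeric label alone gave 0 calls and 517 genes at an unadjusted p under 0.05, under the 1066 expected. For genes called and at least 1.5-fold in all 5 contrasts without overlap (edgeR 0), the counts were 215 by DESeq2, 4 by limma-voom, 1 without a filter, 397 with 18 samples, 3 without those 2 libraries, and 0 to 6 leaving out 1 library at a time. Without a test, the 481 genes became 154 at 2-fold and 1740 at any size, and ranged from 343 to 2128 leaving out 1 library at a time; the 1744 genes without overlap ranged from 1774 to 7449. The 8 genes with differences among the 5 overexpression groups became 1001 with 18 samples, 900 by DESeq2's likelihood ratio test and 0 to 54 leaving out 1 library at a time. DESeq2's 502 calls became 4359 with 18 samples, 766 without SRSF2-OE, 134 without SRSF4-OE, 788 without SRSF9-OE, 275 without TRA2B-OE and 795 without the 2 libraries, and 0 to 751 leaving out 1 library at a time. The 18 samples count lanes of a library as replicates. The counts of 154 and 1740 differ from 481 only by the fold cutoff. Leaving out a library makes the rule of no overlap easier to meet. For the other shifts the cause was not tested. Of 89 named genes, 0 reversed over 2755 gene and setting pairs. Most of them were chosen for libraries without overlap or for the smallest p of a list. A reversal was therefore unlikely from the start, and the 0 is no separate evidence. With the replicate number as a block, edgeR called 0 genes (3020 at an unadjusted p under 0.05) and DESeq2 called 649, of which 437 were among the 502. Libraries with the same number had correlated deviations of -0.42 to 0.49 in 31 pairs (median 0.12), 16 of them over 0.1. Other pairs of libraries from different groups gave -0.59 to 0.52 in 50 pairs (median -0.12), 17 of them over 0.1. In groups of 2 libraries the deviations mirror each other, so these pairs are not separate observations and do not decide whether numbers pair libraries. The numbers were not taken to pair libraries. Alternatives on DESeq2 calls, overlap and lists were added after the data were seen.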
